A study of Mus musculus with 9 samples.

Results

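The genes described here are 8 genes of bone formation, bone mineral and bone resorption, read in RNA of the mouse cochlea, which is encased in a bony shell, the otic capsule. They are Sp7, Alpl, Ibsp, Spp1, Dmp1, Phex, Acp5 and Ctsk, chosen by name, and they make up 8 of the 51912 genes listed in each wild type and heterozygous library. The cochleae came from mice at postnatal day 3. By the sample titles, 3 libraries were Pou4f3(+/+), called WT here, 3 were Pou4f3(Δ/+), called HET, and 3 were Pou4f3(Δ/Δ), called HOM. Pou4f3 is a transcription factor of the sensory hair cells, Δ is the mutant allele, and the series' design text speaks of Pou4f3(Δ/+) mice with wild type littermates, without naming HOM. The genotype characteristic of each sample names another genotype than its title: Pou4f3(+/+) stands on the HET samples, Pou4f3(delta/+) on the HOM samples and Pou4f3(delta/delta) on the WT samples. Groups follow the titles, so every direction below rests on the titles. None of the 8 genes (0) is among the 1137 genes that each HOM library lists, and an unlisted gene is not a gene at zero, so the genes were not analysed here in HOM. No label says whether a library holds 1 animal or a pool, or whether libraries of a group are separate animals, so p values measure only the spread between these libraries, which may be technical.

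Bone is built by osteoblasts, which secrete a collagen matrix and load it with calcium phosphate. Some of them are buried in that matrix as osteocytes, which govern phosphate and mineral. Osteoclasts, large cells fused from precursors of the macrophage lineage, dissolve the mineral with acid and digest the collagen with proteases. The otic capsule begins as cartilage that is replaced by bone around birth, and once formed it is known for very little remodelling.

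Levels are given in FPKM, sequenced fragments scaled to exon length and to the size of the library. Comparisons between genes also rest on how the authors assigned reads to genes, which is not known here. Recovered depth was 14568600 to 17402900 fragments in the 6 WT and HET libraries. HET replicate 1 and WT replicate 3 stood apart from the other 4 on the largest axis of variance over all genes (58.1%), and values without this pair stand at the end. Pou4f3 itself was at 24.5 to 27.0 FPKM in WT, 21.7 to 25.6 in HET and 1.36 to 9.39 in HOM, so its level did not separate HET from WT. The tissue was that of a cochlea: Tectb, a tectorial membrane gene, was at 1288 to 1907 FPKM and Otor, a gene of otic fibrocytes and cartilage, at 1831 to 2611.

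Dmp1, Ibsp and Spp1 encode acidic, phosphorylated matrix proteins of the SIBLING family and lie in one cluster on chromosome 5, with Mepe between Ibsp and Spp1. Stretches before their RefSeq starts are shown because these clustered genes differed in how they varied between libraries. They were read from RefSeq's promoter table for GRCm38.p6, on the + strand, 5′ to 3′. Capitals mark the CCAAT box, which reads ATTGG on this strand, and the core of the site that RUNX factors of osteoblasts bind, TGTGGT, here as its reverse complement. The first pair of lines is the region before the annotated start of Dmp1 (chr5:104202367-104202612) and Spp1 (chr5:104434861-104435110). The last 3 lines are the 30 bases around the CCAAT box in Dmp1 (chr5:104202548-104202577), Ibsp (chr5:104299221-104299250) and Spp1 (chr5:104435053-104435082).
Dmp1 upstream: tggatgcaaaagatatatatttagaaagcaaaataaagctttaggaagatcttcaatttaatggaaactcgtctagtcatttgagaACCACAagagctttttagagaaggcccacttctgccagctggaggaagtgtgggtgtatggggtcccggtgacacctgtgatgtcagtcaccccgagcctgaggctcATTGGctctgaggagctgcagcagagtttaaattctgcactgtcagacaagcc
Spp1 upstream: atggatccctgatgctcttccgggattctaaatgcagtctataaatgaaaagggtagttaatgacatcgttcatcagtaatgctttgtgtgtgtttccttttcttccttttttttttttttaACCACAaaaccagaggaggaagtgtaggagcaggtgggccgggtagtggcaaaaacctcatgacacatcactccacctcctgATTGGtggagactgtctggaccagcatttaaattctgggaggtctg
Dmp1 around the box: agcctgaggctcATTGGctctgaggagctg
Ibsp around the box: gccacagctgtgATTGGctgttgagaggcg
Spp1 around the box: ctccacctcctgATTGGtggagactgtctg

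The CCAAT box began 57, 54 and 46 bases before the RefSeq start of Dmp1, Ibsp and Spp1. The RefSeq start of Ibsp lies 116 bases past the GENCODE M21 start, so the Ibsp box lies upstream of the former but downstream of the latter, inside the gene as annotated there; the boxes of Dmp1 and Spp1 are upstream of both starts. Of the 8 genes, 7 had an entry in the promoter table (all but Sp7). Acp5 had 3 entries and Alpl, Spp1 and Dmp1 had 2 each, and only the entry nearest the GENCODE M21 start was read. In the entries read, Dmp1, Ibsp and Spp1 were the ones with a CCAAT box in the 250 bases before the start. Shares of all promoters count every entry. A CCAAT box was present in 33.8% of all 32851 promoters of that length. The RUNX core was present in 2 of the 7, in Dmp1 (164 bases before the start) and Spp1 (128 bases), against 14% of all promoters. A TATAAA box was found in Spp1, 211 bases before the start, and in Ibsp, 28 bases before it on the reverse strand, against 12.4% of all promoters. The GC box GGGCGG was in Acp5 and Alpl, against 32.7% of all promoters, and the AP-1 site TGACTCA was in none of the 7 (0), against 4.46%. Both matches in Alpl lie next to each other and share a base, and no other matches overlapped. All 5 motifs were read on both strands, and a match to these letters is a description of the sequence and does not show that a factor binds there.

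Across the 8 genes, Spp1 and Ctsk were the most abundant, at 29.6 ± 4.57 and 26.5 ± 6.32 FPKM in WT (mean ± SD, n = 3 libraries). Their ranges overlapped with each other, and neither overlapped with any other of the 8 genes. Ibsp (4.43 ± 2.25), Acp5 (3.58 ± 2.31) and Dmp1 (3.40 ± 1.04) followed with overlapping ranges. Alpl (1.74 ± 0.338), Sp7 (1.51 ± 0.261) and Phex (1.09 ± 0.117) were the lowest in WT, and in the order given each range overlapped the next; Alpl and Acp5 also overlapped. All 8 genes reached 1 FPKM in 3 libraries, the requirement for the test, and Phex did so in 4. Among the 15391 genes that passed, Phex stood at percentile 3.21 of mean level and Spp1 at percentile 88.5.

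The comparison of HET with WT asks whether a single mutant Pou4f3 allele goes with another level of these bone genes. The test was limma on log2(FPKM + 1), adjusted over all 15391 genes. None of the 8 genes (0) passed the adjusted threshold of 0.05, and neither did any other gene (0%, adjusted p = 0.9998 for each of the 8 in limma). The count was 0 as well in limma-voom, a count-weighted form of the test, on the recovered fragments. At an unadjusted p under 0.05, 1 of the 8 genes, Acp5, was lower in HET, against 0.845% of all genes (1.73%, 266 genes, in both directions), and 1 of the 8 did so in limma-voom. The mean of log2(FPKM + 1) was lower in HET in 8 of 8 genes, where 49.6% of all genes had a lower mean. The median change of the 8 was -0.18 on the log2(FPKM + 1) scale, against 0.001 for all genes. The 8 genes were read in the same 6 libraries and are not independent of each other. They were also chosen with earlier results of these data known, so the count of lower means is a description. The number of lower means was 6 of 8 without HET replicate 2 and 7 of 8 without HET replicate 3, and the median change was -0.07 without WT replicate 2 and -0.29 without HET replicate 1. Fewer cells of a type and less RNA in each cell cannot be told apart in these whole-tissue libraries. The groups also differed in Xist, the transcript of the inactive X chromosome. It was at 54.0 to 107.9 FPKM in HET, but at 0.08 and 0.06 in WT replicates 1 and 3 and 78.2 in WT replicate 2. By this marker genotype and sex are largely confounded in the comparison, and the part of sex was not tested. Without WT replicate 2 they are fully confounded, since the WT libraries left have almost no Xist and every HET library has it. Values given without that library carry this limit.

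**Figure D1:**
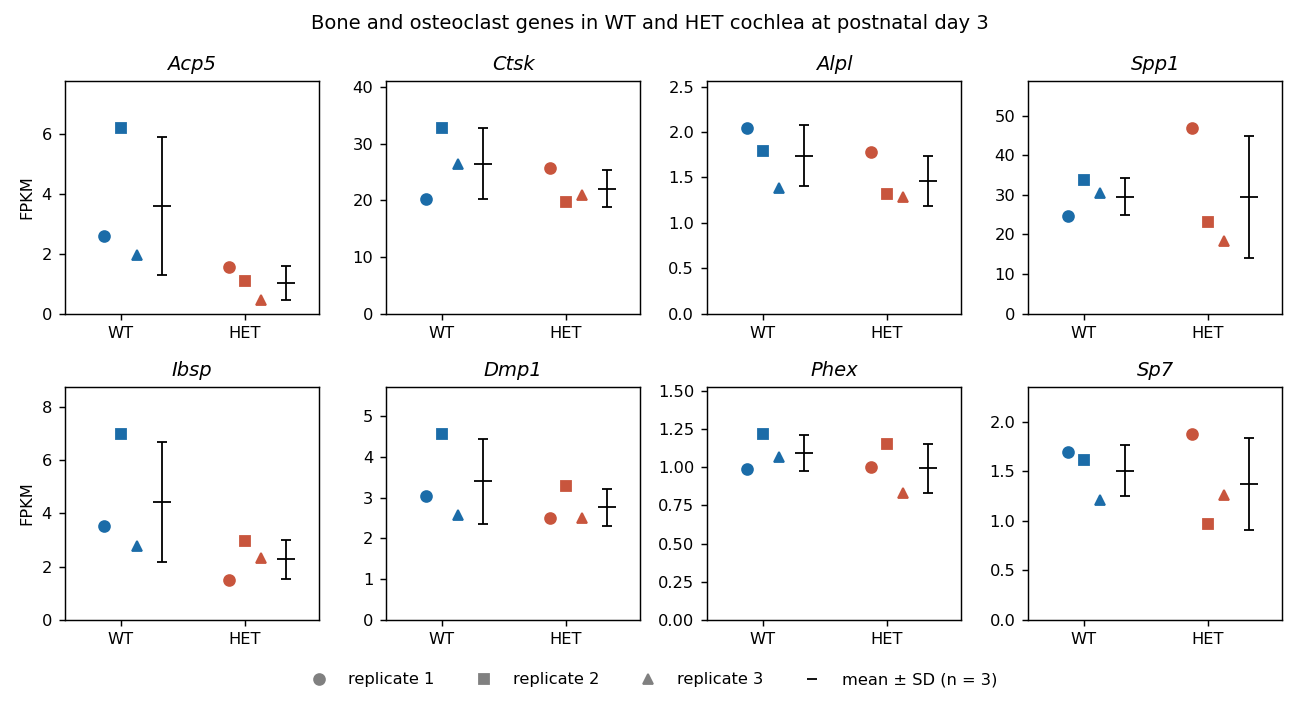
FPKM of the 8 bone and osteoclast genes (vertical axes, from 0) in 3 WT and 3 HET libraries, with a symbol for each replicate and the mean ± SD beside each group. The Acp5 panel is the one in which the groups do not overlap (1.95 FPKM or more in WT, 1.57 or less in HET), and WT replicate 2 is the highest point in the panels of Acp5, Ctsk, Ibsp, Dmp1 and Phex.

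Among the resorption genes, Acp5 encodes tartrate-resistant acid phosphatase, the classical stain for osteoclasts (ENSMUSG00000001348, chromosome 9 from 22126727 to 22135711 in GENCODE M21 on GRCm38, - strand, protein coding, 9 exonic blocks). It was at 2.58, 6.22 and 1.95 FPKM in WT replicates 1 to 3 and at 1.57, 1.08 and 0.44 FPKM in HET replicates 1 to 3. All 3 HET libraries lay below all 3 WT libraries, which was so for 1 of the 8 genes and for 3.12% of all genes with HET lower. The HET mean, 1.03 ± 0.567 FPKM, was 28.7% of the WT mean, and the change was -1.10 (SE 0.37, limma unadjusted p = 0.0230). Its size depends on the constant added to FPKM: it was -1.68 with 0.1 added, and -1.74 in limma-voom. The two-sided exact permutation p was 0.1, the smallest that 3 against 3 libraries allow. The recovered fragments were 333 in WT and 104 in HET, a ratio of 29.6% with a 95% interval of 23.5% to 37.0% for counting error only (exact binomial). The counting interval did not reach 100%, but the WT libraries differed among themselves, and replicate 2 was 2.75 times the mean of the other 2. Without WT replicate 2 the HET mean was 45.5% of WT and the change was -0.72, but genotype and sex by Xist are then fully confounded. An antisense transcript, 6530413G14Rik, shares 137 bases of exon with Acp5 and was at 0 to 0.1 FPKM.

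Ctsk encodes cathepsin K, the collagen-digesting protease of osteoclasts, which fibroblasts also make (ENSMUSG00000028111, chromosome 3 from 95499256 to 95509362, + strand, 8 exonic blocks). Its values were 20.24, 32.87 and 26.45 FPKM in WT and 25.76, 19.65 and 20.89 FPKM in HET. The groups overlapped, with WT replicate 1 among the low values and HET replicate 1 among the high ones. The change was -0.24 (SE 0.19, limma unadjusted p = 0.250; exact permutation p = 0.3), and it was -0.073 without WT replicate 2 and -0.41 without WT replicate 1. Ctsk and Acp5 thus had the same highest library, and their HET means were 83.3% and 28.7% of WT; that difference was not tested. Ctsk spanned 1.67-fold from its lowest to its highest library, whereas Acp5 spanned 14.1-fold.

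Sp7 encodes osterix, the transcription factor required for the osteoblast lineage (ENSMUSG00000060284, chromosome 15 from 102356606 to 102367182, - strand, 4 exonic blocks). It was at 1.70, 1.61 and 1.21 FPKM in WT and 1.88, 0.97 and 1.26 FPKM in HET. The highest and the lowest value were both in HET, in replicates 1 and 2. The change was -0.093 (SE 0.18, limma unadjusted p = 0.615; exact permutation p = 0.8), and its sign turned without HET replicate 2 (+0.031), while it was -0.24 without HET replicate 1.

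Alpl encodes tissue-nonspecific alkaline phosphatase, which breaks down pyrophosphate, an inhibitor of mineral growth (ENSMUSG00000028766, chromosome 4 from 137741733 to 137796384, - strand, 18 exonic blocks). It was at 2.05, 1.79 and 1.38 FPKM in WT and 1.78, 1.32 and 1.29 FPKM in HET. HET replicate 1 lay between the WT values, and the other 2 HET libraries lay just under the lowest WT library. The change was -0.15 (SE 0.15, limma unadjusted p = 0.339; exact permutation p = 0.2), and it was -0.071 without WT replicate 1 and -0.25 without WT replicate 3.

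The 3 SIBLING genes of chromosome 5 did not share one pattern. Ibsp encodes bone sialoprotein, made by osteoblasts where new mineral forms (ENSMUSG00000029306, from 104299171 to 104311469, + strand, 7 exonic blocks). It was at 3.52, 7.0 and 2.78 FPKM in WT and 1.51, 2.97 and 2.33 FPKM in HET. The groups overlapped only in that HET replicate 2 was above WT replicate 3. The HET mean was 51.2% of the WT mean and the change was -0.68 (SE 0.31, limma unadjusted p = 0.0647; exact permutation p = 0.2). As in Acp5, WT replicate 2 was 2.22 times the mean of the other 2 WT libraries. Without it the HET mean was 72.1% of WT and the change was -0.36. The fragments numbered 422 in WT and 233 in HET (ratio 52.4%, counting interval 44.4% to 61.6%).

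Dmp1 encodes dentin matrix protein 1, a matrix protein of osteocytes that holds back the phosphate hormone Fgf23 (ENSMUSG00000029307, from 104202613 to 104214102, + strand, 6 exonic blocks). It was at 3.04, 4.57 and 2.58 FPKM in WT and 2.50, 3.28 and 2.51 FPKM in HET. WT replicate 2 was the one value above 4, and the other 5 lay close together. The change was -0.21 (SE 0.19, limma unadjusted p = 0.308; exact permutation p = 0.5), and it was -0.022 without WT replicate 2 and -0.34 without WT replicate 3.

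Spp1 encodes osteopontin, which inhibits mineral growth and anchors osteoclasts, and which many other cells also make (ENSMUSG00000029304, from 104435118 to 104441050, + strand, 8 exonic blocks). It was at 24.63, 33.66 and 30.41 FPKM in WT and 46.98, 23.08 and 18.38 FPKM in HET. HET replicate 1 was above every WT library and the other 2 HET libraries were below every WT library. The HET mean was 99.7% of the WT mean, with an SD of 15.3 against 4.57 FPKM, and the change was -0.11 (SE 0.33, limma unadjusted p = 0.758; exact permutation p = 1). Gm42793, a predicted transcript on the same strand, shares 309 bases of exon with Spp1 and was at 0.05 to 0.42 FPKM. The change of Spp1 was -0.49 without HET replicate 1, +0.16 without HET replicate 3 and +0.0077 without HET replicate 2.

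Between the SIBLING genes, the Pearson r of log2(FPKM + 1) over the 6 libraries was 0.927 for Ibsp and Dmp1, 0.0756 for Spp1 and Dmp1, and -0.0916 for Spp1 and Ibsp. The points of each pair share their libraries and their depth, and WT replicate 2 leads both Ibsp and Dmp1. Among the coding neighbours Sparcl1, a gene of a related matrix protein upstream of Dmp1, was at 535 to 753 FPKM. Dspp, a tooth gene of the same family, was at 0 to 0.03 FPKM, and Mepe, an osteocyte gene between Ibsp and Spp1, at 0 to 0.16 FPKM. Thus 3 of the 5 SIBLING genes in this stretch were above 1 FPKM in each of the 6 libraries.

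Phex encodes an endopeptidase of osteoblasts and osteocytes whose loss causes X-linked hypophosphataemia (ENSMUSG00000057457, chromosome X from 157162075 to 157415312, - strand, 22 exonic blocks). It was at 0.99, 1.22 and 1.07 FPKM in WT and 1.00, 1.15 and 0.83 FPKM in HET. It varied the least of the 8, 1.47-fold from lowest to highest, with overlapping groups. The change was -0.072 (SE 0.13, limma unadjusted p = 0.598; exact permutation p = 0.5), and it was -0.012 without HET replicate 3 and -0.13 without HET replicate 2. The 320 fragments in WT and 310 in HET gave a ratio of 91.9%. Its counting interval, 78.3% to 107.7%, includes no difference between the groups and leaves out the spread between libraries.

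**Figure D2:**
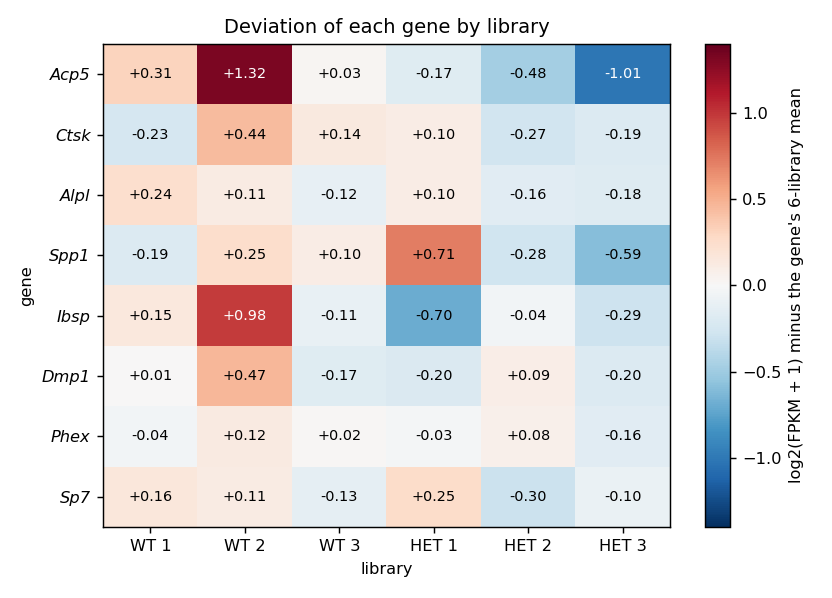
Deviation of each gene (rows) in each library (columns) from its own mean over the 6 libraries, on log2(FPKM + 1); red is above the mean and blue below. The WT 2 column is above the mean in each row (0.11 to 1.32), the HET 3 column is below it in each row, and HET 1 holds both the highest Spp1 (0.71) and the lowest Ibsp (-0.70).

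Library by library, the 8 genes did not vary alike. WT replicate 2 was the highest of the 6 libraries in 5 of the 8 genes (Acp5, Ctsk, Ibsp, Dmp1 and Phex), whereas it was the highest in 8.17% of all genes. HET replicate 1 was the highest in Spp1 and Sp7, 2 of 8, and in 25.5% of all genes. HET replicate 3 was the lowest in 4 of the 8 genes (Acp5, Alpl, Spp1 and Phex), and the share of all genes lowest in it was not counted. WT replicate 2 was thus high for most of the matrix and resorption genes at once, but in Alpl it was 1.04 times the mean of the other WT libraries. Xist, the transcript of the inactive X chromosome, was at 78.2 FPKM in WT replicate 2, at 0.08 and 0.06 in WT replicates 1 and 3, and at 54.0 to 107.9 in HET; the part of sex in these values was not tested. Of 28 pairs among the 8 genes, 12 had a Pearson r above 0.5 over the 6 libraries, from -0.0919 (Phex and Sp7) to 0.927 (Ibsp and Dmp1). Alpl and Sp7 made a second close pair (0.867).

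By the same measure, the genes most like the mean pattern of the 8 were looked up among 5184 other tested genes whose SD over the 6 libraries was at least 0.2. The 5 highest were Gm22098 (r 0.969), Gm14287 (0.953), Gm26979 (0.951), Mir8109 (0.949) and Snord89 (0.934), of which 3 are predicted genes, 1 a microRNA and 1 a small nucleolar RNA, with Spearman rho from 0.771 to 0.943. Gm22098 was at 3.46, 7.27 and 3.89 FPKM in WT and 2.88, 2.03 and 1.51 in HET. The mean pattern followed Acp5 most closely (r 0.987) and Sp7 least (0.529). That order is partly built in, since the mean holds each gene itself and is not scaled. Acp5 deviated by -1.01 to 1.32 and Sp7 by -0.30 to 0.25, so genes like the mean are mostly genes like Acp5. All points share their libraries and depth, and the values of r are a description.

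**Figure D3:**
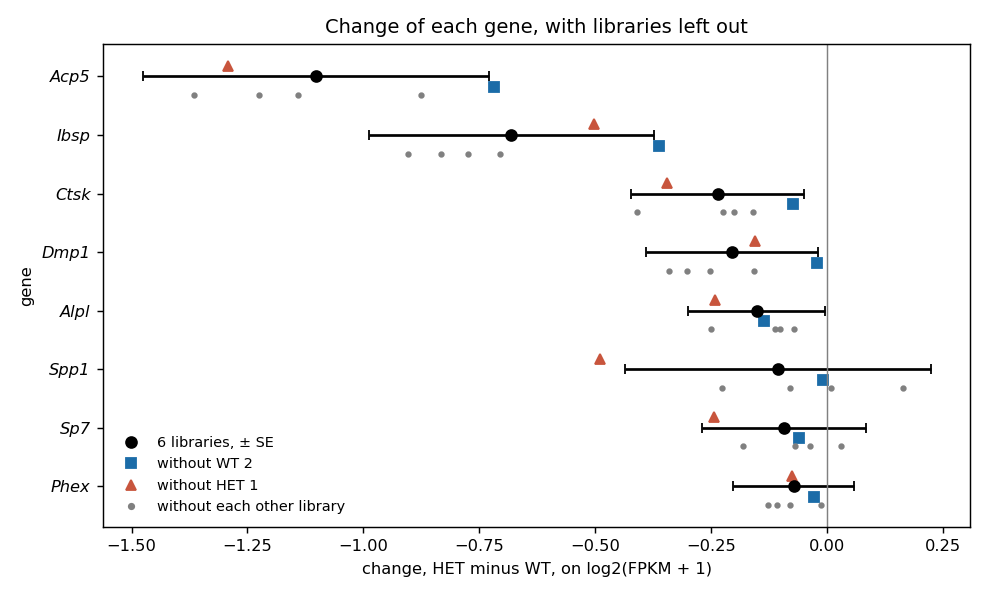
Change of each gene, HET minus WT on log2(FPKM + 1), with its SE (black), and the same change with 1 library left out (blue without WT 2, red without HET 1, grey without each other library). Acp5 stays between -1.36 and -0.72 throughout, whereas Spp1 lies between -0.49 and 0.16.

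The other genes of the pathway were read in 4 lists with 54 genes, of which 33 were tested and 21 were too low. None of the 33 (0) passed limma's threshold in either direction, 1 had an unadjusted p under 0.05, against 1.73% of all genes, and 2 did in limma-voom, against 1.37%. A lower mean in HET was found in 24 of the 33, against 49.6% of all genes. These lists too were chosen with earlier results of these data known, so that count is a description. Their median change was -0.06.

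Among osteoblast factors and matrix genes, 9 of 16 were tested, with 6 lower and 3 higher means (median change -0.10). Col1a1, a chain of type I collagen, was at 7.72, 17.58 and 10.44 FPKM in WT and 8.84, 5.26 and 6.29 in HET (-0.68, SE 0.30, limma unadjusted p = 0.0587). As in Ibsp, WT replicate 2 was the highest and the groups overlapped. Its partner chain Col1a2 averaged 111 ± 6.68 FPKM over the 3 WT libraries and 104 ± 10.4 over the 3 HET libraries. Fibroblasts make both chains as well, and the cause of the gap in level between the chains was not tested. Ifitm5, a membrane protein gene of mineralising osteoblasts, was at 1.85 ± 0.534 and 1.26 ± 0.212 FPKM (-0.32). Runx2, the factor upstream of Sp7, was too low to be tested, at 0.81 to 1.2 FPKM in WT and 0.68 to 1.10 in HET, with overlapping groups.

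Of the mineral and osteocyte genes, 9 of 15 were tested, with 6 lower and 3 higher means (median change -0.05). Smpd3, a sphingomyelinase needed for mineralisation, was at 1.45 ± 0.323 FPKM in WT and 1.14 ± 0.119 in HET (-0.18). Fam20c, the kinase that phosphorylates the SIBLING proteins, was at 9.50 ± 0.505 and 8.43 ± 0.647 FPKM (-0.16). The osteocyte markers Sost and Mepe were at 0 to 0.16 FPKM, and Pdpn was listed at 0 in each of the 6 libraries. Whether the 0 of Pdpn comes from its expression or from how reads were assigned was not tested. Of the 4 osteocyte markers, Dmp1, Phex, Mepe and Sost, only Dmp1 and Phex exceeded 1 FPKM in any library.

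In the osteoclast list, 10 of 16 genes were tested, with 8 lower and 2 higher means (median change -0.05). Mmp9, the gelatinase of osteoclasts, was at 2.37, 4.83 and 1.06 FPKM in WT and 0.74, 0.83 and 0.85 FPKM in HET. Its groups did not overlap, as in 3.12% of all genes with HET lower, and WT replicate 2 was again the highest library. The change was -0.93 (SE 0.35, limma unadjusted p = 0.0368; exact permutation p = 0.1), and the HET mean was 29.3% of WT, or 47.0% without WT replicate 2. Itgb3, an integrin chain that binds osteopontin, was at 3.80 ± 0.130 and 3.35 ± 0.707 FPKM (-0.16). Genes of the acid machinery, which other cells share, overlapped between groups: Tcirg1, a proton pump subunit, was at 11.0 ± 2.18 FPKM in WT against 10.1 ± 2.34 in HET, and Clcn7, a chloride transporter, at 9.54 ± 0.576 against 9.21 ± 0.717 (SD, n = 3). The genes that define mature osteoclasts were close to 0: Calcr at 0 to 0.03 FPKM, Dcstamp at 0 to 0.14, Ocstamp at 0 to 0.11, Atp6v0d2 at 0 to 0.28 and Oscar at 0.13 to 0.47. Of the 5 osteoclast markers used to check the name, Acp5, Ctsk, Calcr, Oscar and Atp6v0d2, only Acp5 and Ctsk exceeded 1 FPKM in any library. The 10 tested genes of the list reached 1 FPKM by the rule of the filter, so that is not a result. Among them were Mmp9, Itgb3 (2.53 to 3.93 FPKM) and Nfatc1, the transcription factor that drives osteoclast formation (5.04 to 5.71 FPKM). The untested genes of the list stayed under 1 FPKM in each library. The name osteoclast gene therefore says what Acp5 and Ctsk are known for, and the cells that carry their RNA were not identified.

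**Figure D4:**
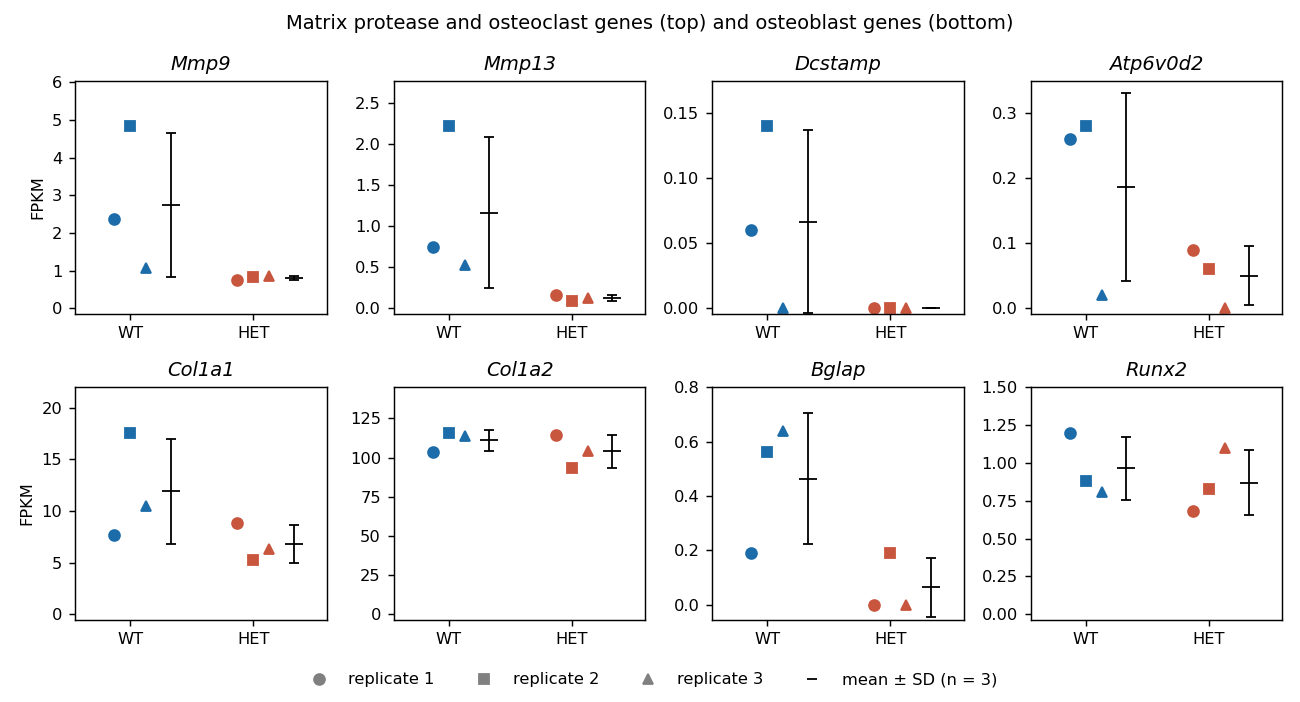
FPKM (vertical axes) of 8 genes outside the 8 in 3 WT and 3 HET libraries, with a symbol for each replicate and the mean ± SD beside each group. The WT and HET points are apart for Mmp9 and Mmp13 and overlap or tie in the other 6 panels, and Dcstamp is at 0 in each HET library.

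Osteoclasts form when the ligand RANKL (Tnfsf11) meets its receptor RANK (Tnfrsf11a), with Csf1 or Il34 acting on Csf1r, and the decoy receptor osteoprotegerin (Tnfrsf11b) blocks RANKL; osteoprotegerin is known to protect the otic capsule from remodelling. Of these 7 ligand, receptor and adaptor genes 5 were tested, with 4 lower and 1 higher mean (median change -0.11). Tnfrsf11b was at 4.23, 4.17 and 3.40 FPKM in WT and 4.59, 4.61 and 5.48 in HET. Every HET library was above every WT library, a change of +0.26 (SE 0.11, limma unadjusted p = 0.0564). Il34 was at 1.47, 1.44 and 1.45 FPKM in WT and 1.22, 1.2 and 0.79 in HET, with HET below WT throughout (-0.25, SE 0.13, limma unadjusted p = 0.105). Of the 33 tested genes in the 4 lists, 2 had groups apart with HET lower, against 3.12% of all genes. With HET higher, 1 of the 33 had groups apart, and the share over all genes was not counted. Such separations are thus not read as a result. Csf1r (-0.14), Csf1 (-0.11) and the adaptor gene Traf6 (-0.0049) had overlapping groups. Tnfrsf11a was at 0.39 to 0.66 FPKM and Tnfsf11 at 0.03 to 0.06 FPKM, both too low to be tested.

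Markers of other cells in the dissected tissue were read beside these genes, and none of their tested members (0) passed limma's threshold. The 11 macrophage genes, a lineage that shares genes with osteoclasts, summed to 51.2 to 60.6 FPKM in WT and 48.0 to 63.5 in HET, and WT replicate 2 had the lowest WT sum. Among them Lyz2 (+0.24) and Mrc1 (+0.14) had the largest changes. The 16 cartilage genes summed to 3461 to 3809 FPKM in WT and 3183 to 3845 in HET, with Ucma (+0.12) and Matn1 (-0.12) the largest changes among 9 tested; Col10a1, the marker of hypertrophic cartilage, was at 0 to 0.07 FPKM. The erythroid list, with 8 of 9 genes in the files, summed to 109.9 to 170.7 FPKM in WT and 63.8 to 145.6 in HET, lower in 5 of 5 tested genes, led by Hbb-bs (-0.46) and Hba-a1 (-0.40), and highest in WT replicate 3. Neutrophil and marrow genes summed to 4.05 to 5.03 FPKM in WT and 3.41 to 5.71 in HET (Prtn3 -0.26, S100a9 +0.02), with Elane and Ctsg at 0.07 or less. Skeletal muscle genes summed to 2.33 to 3.42 and 3.02 to 3.55 FPKM (Mylpf -0.02), and brain genes to 2.78 to 3.82 and 3.91 to 5.37 FPKM (Cbln1 +0.27, Slc17a6 +0.10), with Gabra6 at 0. Otic fibrocyte and mesenchyme genes summed to 2124 to 2526 FPKM in WT and 2202 to 2878 in HET (Slc26a4 +0.31, Coch +0.17), and genes of the sensory epithelium to 3576 to 3748 and 3366 to 4029 FPKM (Lfng -0.12, Myo7a +0.11). Of these marker lists the brain list alone had sums that did not overlap, higher in HET, and the part of any of these cells in the values of the 8 genes was not tested. The 8 bone genes summed to 58.8, 88.9 and 67.8 FPKM in WT and 83.0, 53.5 and 47.9 in HET, and without Spp1 and Ctsk to 13.9, 22.4 and 11.0 in WT and 10.2, 10.8 and 8.66 in HET. The first sum is set by Spp1 and Ctsk and overlaps between groups. The second, of the 6 rarer genes, was lower in each HET library than in each WT library. The narrowest gap was 10.8 FPKM in HET replicate 2 against 11.0 in WT replicate 3. This sum includes Acp5, the only one of the 6 with groups apart, at 1.08 FPKM in HET replicate 2 and 1.95 in WT replicate 3. The sum therefore does not show a joint fall of the 6 genes.

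**Figure D5:**
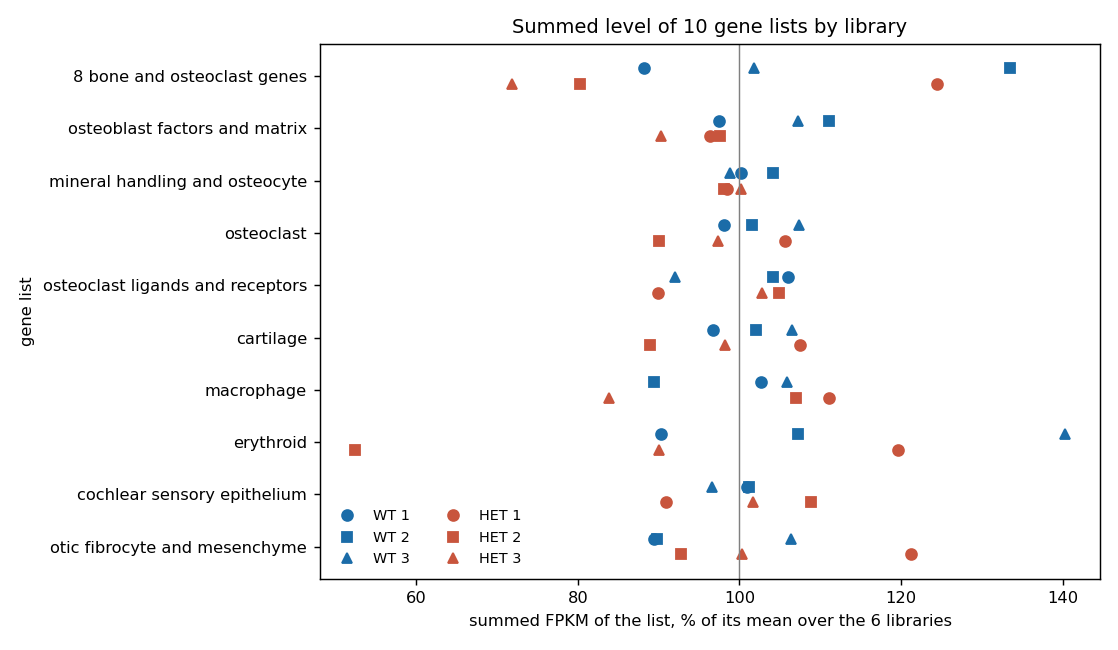
Summed FPKM of 10 gene lists (vertical axis) in each library, as a percent of that list's mean over the 6 libraries (horizontal axis), with WT libraries in blue and HET libraries in red. The neutrophil, muscle and brain lists, with low sums, are not shown; among the 10 rows, those of the 8 bone and osteoclast genes and of the erythroid genes spread the widest, with WT 2 highest for the former (88.9 FPKM) and WT 3 highest for the latter (170.7 FPKM).

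Without HET replicate 1 and WT replicate 3, the pair that stood apart, 7 of the 8 genes could still be tested (Phex was too low). All 7 had a lower mean in HET, against 47.4% of all genes. Of the 7, 5 had an unadjusted p under 0.05, against 15.9% of all genes, and none (0) passed the adjusted threshold. The median change of the 7 was -0.34, against -0.18 for the 8 genes with all libraries. The change was -0.34 for Alpl (limma adjusted p = 0.271), and -0.33 for Sp7 (limma adjusted p = 0.313). For Spp1 it was -0.46 (limma adjusted p = 0.298) and for Ibsp -0.73 (limma adjusted p = 0.310). These 4 genes and Acp5 are the 5 with an unadjusted p under 0.05. Ctsk was at -0.34 (limma adjusted p = 0.478) and Dmp1 at -0.29 (limma adjusted p = 0.480). The difference in Acp5 was -1.55 on the log2(FPKM + 1) scale in that fit, at an adjusted p of 0.217 in limma. That fit keeps WT replicate 2. With HET replicate 1 and WT replicate 2 left out instead, 6 of 7 genes had a lower mean, against 51.1% of all genes. In that second fit 1 of 7 had a limma unadjusted p under 0.05, against 8.69% of all genes. Ibsp was then at -0.19 and Dmp1 at +0.027. Over the 17 alternatives the adjusted p of Acp5 lay between 0.217 and 1.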

How the data were processed

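RNA-seq of cochleae at postnatal day 3 was deposited as 1 table per library of FPKM, calculated by the authors per the file headers and rounded to 2 decimals. Per the labels' protocols, libraries were made after poly(A) selection or rRNA removal. A build (mm8) and a tool (DESeq2) are named in the submitters' processing notes; which aligner, counter, strand setting or annotation was used is not given here. Of the 51912 identifiers, 51719 (99.6%) have an entry in GENCODE M21, and coordinates are its positions on GRCm38. Depth was recovered from the low FPKM of genes with up to 600 bp of exon, of which 99.4% to 99.8% were then whole fragments within 0.1, a check that is not independent of the fit.

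HET was compared with WT by limma 3.58.1 in R 4.3.3, with a mean-variance trend, on log2(FPKM + 1), two-sided, keeping genes that reached 1 FPKM in 3 or more of 6 libraries, with Benjamini-Hochberg adjustment over all genes tested and a threshold of 0.05. The script was checked on simulated data. Counting intervals are at the 95% level. The genes and lists were chosen with earlier results of these data known. From each other list the 2 genes with the largest change were named (all 5 tested ligand and receptor genes); further genes were named after their values were seen. The alternatives varied the pseudocount, the filter, the scaling, the trend, a block and the libraries; limma-voom and 1 pair of libraries were added after the data were seen.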

Additional observations from a re-analysis of the deposited data

How the results depend on the processing

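Of 202 alternative values under 17 settings, 196 kept the direction and side of the threshold of the main value (or lay within its spread), 4 changed sign and 2 made a call. The sign changes were those of Spp1 without HET replicate 2 (+0.0077) and without HET replicate 3 (+0.16; range -0.49 to 0.16), Sp7 without HET replicate 2 (+0.031; range with 1 library left out -0.24 to 0.031) and Dmp1 without HET replicate 1 and WT replicate 2 together (+0.027); the cause was not tested. The count of called genes over all genes ranged from 0 to 1 with a single library left out, 1 without WT replicate 1 and 1 without WT replicate 2, neither of them among the bone genes. The count of the 8 genes and of the 33 other bone genes called was 0 in each alternative. Genes with an unadjusted p under 0.05 numbered 266 of 15391, but 1833 without HET replicate 1, 2356 without HET replicate 1 and WT replicate 3 and 1283 without HET replicate 1 and WT replicate 2. The median change of the 8 genes ranged from -0.29 to -0.07 with 1 library left out. Same-numbered WT and HET libraries did not all deviate together (r -0.519, 0.286 and -0.471). With 3 libraries in each group, these values cannot decide whether the numbers pair libraries. With a replicate block 0 genes were called, 173 had an unadjusted p under 0.05 and the median change of the 8 genes was -0.18. The planned quasi-likelihood count test was not run, since the FPKM of long genes, rounded to 2 decimals, do not give back whole fragments. Acp5 in HET rested on 104 fragments in 3 libraries and Mmp9 on 141.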

Other observations

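Mmp13 encodes the collagenase of hypertrophic cartilage and bone-forming cells and belongs to the cartilage list, but it was too low to be tested and is named here after its values were seen. It was at 0.75, 2.21 and 0.52 FPKM in WT replicates 1 to 3 and at 0.16, 0.09 and 0.12 FPKM in HET. Every HET library was below every WT library (two-sided exact permutation p = 0.1, the smallest possible), and WT replicate 2 was the highest, as for Acp5 and Mmp9. The share of such separations among genes too low to be tested was not counted, so this one is not read as a result. Its fragments numbered 141 in WT and 16 in HET, a ratio of 10.8% with a counting interval of 5.99% to 18.1%; without WT replicate 2 the HET mean was 19.4% of the WT mean. Bglap, which encodes osteocalcin and has a near-identical neighbour in Bglap2, was at 0.19, 0.56 and 0.64 FPKM in WT and 0, 0.19 and 0 in HET, on 13 and 2 fragments. Atp6v0d2, a proton pump subunit of osteoclasts, had 24 fragments in WT and 7 in HET (ratio 27.7%, counting interval 10.1% to 66.2%), with overlapping libraries. Other untested genes of the osteoclast list did not fall. Oscar had 25 fragments in WT and 29 in HET, Calcr had 1 and 3, and Siglec15 averaged 0.21 FPKM in WT and 0.357 in HET. The low genes thus do not show a common fall.

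The HOM libraries list 4 of the 54 genes in the other bone lists. In 100% of the 1137 genes listed there the HOM and WT libraries do not overlap, so the listing itself goes with a difference from WT and the values are a description. Pth1r, the parathyroid hormone receptor of bone and kidney, was at 4.18, 4.17 and 4.13 FPKM in HOM, against 5.52 to 7.05 in WT and 5.17 to 8.31 in HET. Nfatc1, the transcription factor that drives osteoclast formation, was at 4.66 ± 0.381 FPKM in HOM (SD, n = 3), 5.48 ± 0.247 in WT and 5.28 ± 0.256 in HET. Snx10, a vesicle trafficking gene needed by osteoclasts, had a HOM mean of 3.19 ± 0.191 FPKM against 2.71 ± 0.197 in WT. The phosphate transporter gene Slc20a2 had a HOM mean of 9.51 ± 0.448 FPKM against 8.07 ± 0.575 in WT.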
